A study of Mus musculus with 8 samples.

Results

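The genes described here encode the enzyme complex that places N6-methyladenosine (m6A) on messenger RNA. Peaks of m6A on their own transcripts were compared between mouse embryonic stem cells in which Setd2 was knocked down and untreated controls. The 8 genes were Mettl3, Mettl14, Wtap, Virma, Zc3h13, Cbll1, Rbm15 and Rbm15b. They were chosen by name. Each gene with peaks was matched to an Ensembl identifier of the deposited peak tables by the position of its gene in mm10. Of the 8 genes, 7 carried peaks. They held 25 of the 25815 peaks in the control table and 25 of the 27612 peaks in the Dox table. The 2 tables together name 13110 genes.

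All cells carried a knockdown of Setd2, the H3K36 trimethylase gene, that doxycycline (Dox) switches on. Control cells received no Dox, and the treated cells were exposed to 1 µg/ml over 4 days. Both grew free of feeder cells, as spheres, in a serum-free N2B27 medium with LIF at 1000 U/ml, 1 µM of PD0325901 to block MEK and 3 µM of CHIR99021 to block GSK3 (2i medium), which keeps embryonic stem cells in the naive state. Each condition had 2 replicates enriched with an antibody against m6A (IP) and 2 of unenriched input RNA, 8 libraries in all. Peaks were called once per condition on its 4 libraries, so no replicate spread exists, no test between conditions was made, and the depth behind a peak is unknown. No Dox-treated cells without the knockdown construct were analysed here, so an effect of Dox itself and the knockdown cannot be told apart. All 8 naive stem cell markers looked up (Pou5f1, Sox2 and Nanog among them) were marked in control and in Dox alike. Of 6 fibroblast markers, 2 were marked in at least 1 condition. For comparison, 49.4% of protein-coding RefSeq genes held no peak midpoint in either table. Among genes marked at all, 79.9% were marked in the 2 tables alike. These marker counts do not measure transcript levels and do not establish the cell type. Setd2 itself had 10 control and 6 Dox peaks, which do not measure its transcript level. In bulk RNA, fewer cells of a type and less RNA per cell cannot be told apart.

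The m6A mark is a methyl group that nuclear enzymes add to adenosines of nascent transcripts. METTL3 is the catalytic subunit, and METTL14, its partner without catalytic activity, helps hold the RNA. WTAP, VIRMA, ZC3H13 and CBLL1 (HAKAI) form the regulatory part that keeps the enzyme in the nucleus and guides it, and RBM15 and RBM15B are RNA-binding adaptors. The mark sits in the sequence context DRACH, whose core is GAC or AAC, is common in long internal exons and near stop codons, and is read by YTH proteins that speed RNA decay. In embryonic stem cells it is known for shortening the life of pluripotency transcripts. METTL14 has been reported to bind H3K36me3, the mark that SETD2 writes. The peaks described here are those on the writer genes' own transcripts.

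The sequences available for these genes come from the RefSeq promoter table (GRCm38.p6, the assembly of mm10), which holds the first 50 transcribed bases of 6 of the 8 genes. Mettl14 and Virma had no entry. Bases 21 to 50 are shown 5′ to 3′ because the control peaks without a Dox counterpart lay near gene starts, in Zc3h13 and Rbm15b among the genes printed. Neither of these 2 peaks reaches the printed bases. The Zc3h13 peak begins at 75284522, after the printed stretch ends at 75284415, and the Rbm15b peak begins at base 66. Capitals mark GAC and AAC.

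Mettl3: gctctatccggctggccttcgggcgtcctc
Wtap: tccggccgcttcccttcccagccccgctga
Zc3h13: agtgtagcggccaggcagagttgtggtctt
Cbll1: gcgcttactgcGACtccggagcGACtGACt
Rbm15: ggcggagctacagcctggcgcgaggAACcg
Rbm15b: gcggcgccgggggcgctgcctcctgggccg

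These stretches lie at chr14:52305075-52305104 (Mettl3), chr17:12992494-12992523 (Wtap), chr14:75284386-75284415 (Zc3h13), chr12:31499567-31499596 (Cbll1), chr3:107333240-107333269 (Rbm15) and chr9:106887026-106887055 (Rbm15b). All are on the minus strand except Zc3h13. Where a gene had several entries, the start nearest to the end of its RefSeq interval was taken. Within the 50 bases GAC or AAC occurred 3 times in Cbll1 and 2 times in Rbm15, and not in the other 4 genes. Over all 32851 entries of the table, 68.6% held GAC or AAC on the transcribed strand and 70.7% on the opposite strand (as GTC or GTT). The search covered this window alone. Antibodies against m6A also bind m6Am, a methylated adenosine next to the cap, so peaks at transcript starts cannot be assigned to either mark. The annotated start base was G in Mettl3, Zc3h13, Rbm15 and Rbm15b and C in Wtap and Cbll1, whereas 34.4% of all entries begin with A. A further Wtap start begins with A, and a further Zc3h13 start with T.

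Most m6A peaks of the writer genes were called in both conditions, and the 3 control peaks with no Dox counterpart all lay at gene 5′ ends. Over all genes, too, control peaks at 5′ ends lacked a counterpart more often than others (38.4% against 15.3%). Peaks counted as shared when they had at least 1 exonic nucleotide in common on the same strand. Counterparts were missing for 3 of the 25 control peaks (12%, exact 95% interval 2.55% to 31.2%), 1 each in Mettl14, Zc3h13 and Rbm15b. Over all control peaks the share was 19.3%. Conversely, 4 of the 25 Dox peaks (16.0%, 4.54% to 36.1%) were without a control counterpart, 2 in Virma and 1 each in Mettl3 and Rbm15, against 29.1% of all Dox peaks. These intervals reflect counting error alone, and peaks of 1 gene share its transcript. Each of the 7 marked genes was marked in both lists, as were 79.9% of all genes with a peak.

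**Figure D1:**
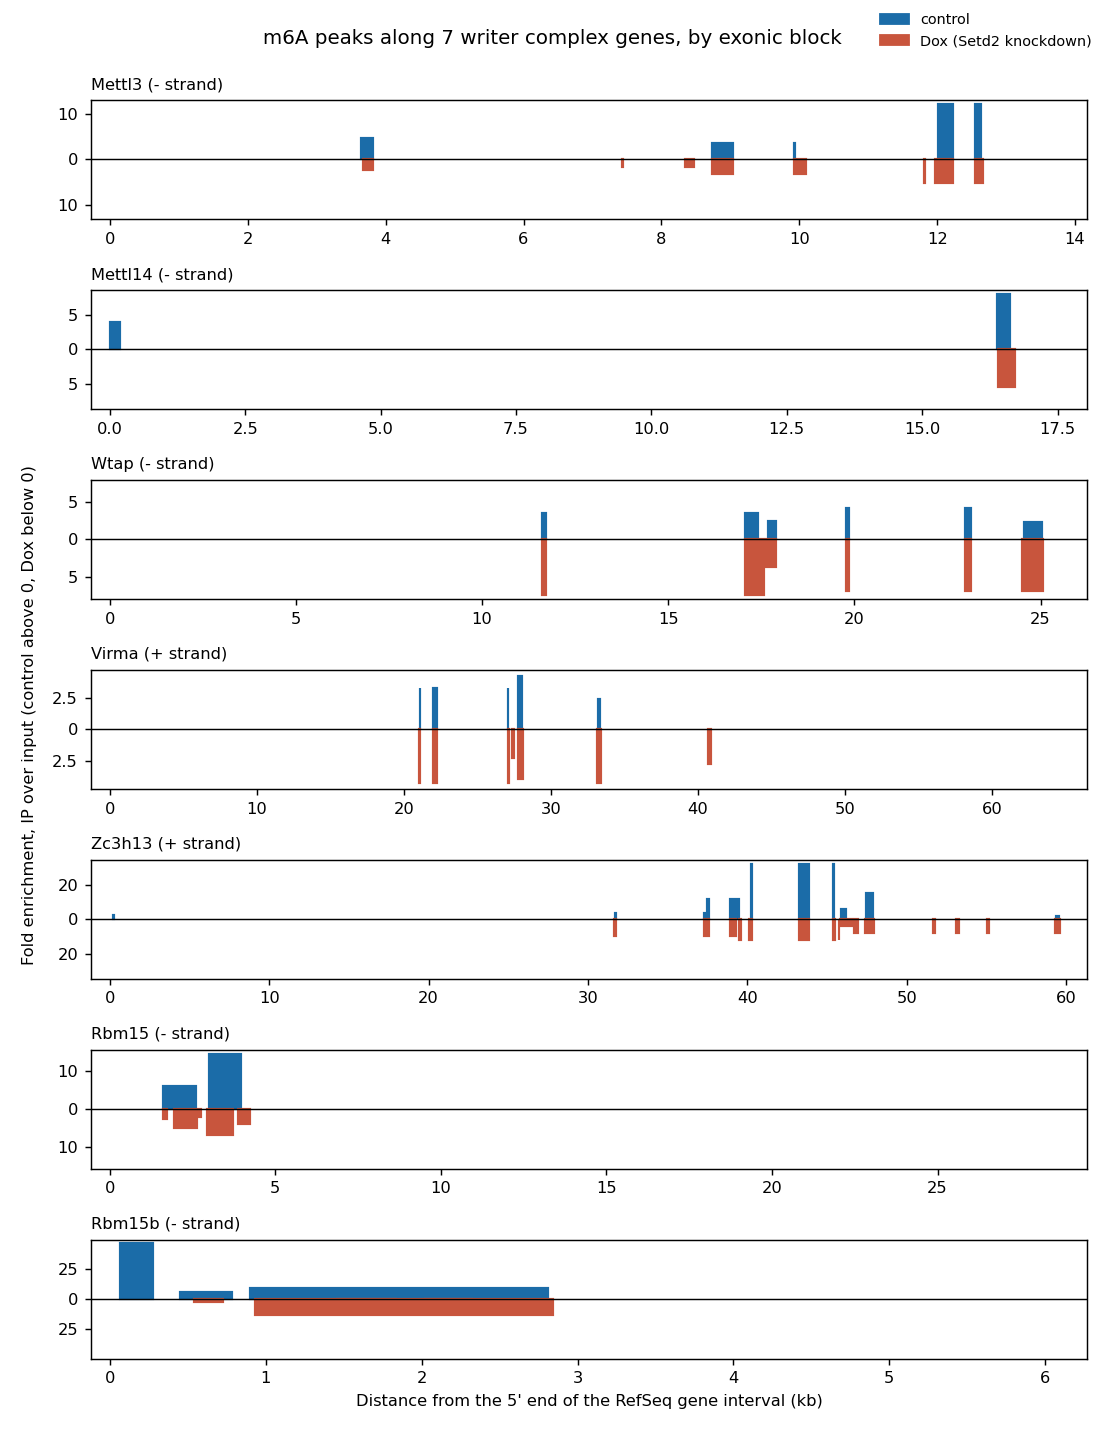
Exonic blocks of every peak of the 7 genes, by distance in kb from the 5′ end of the RefSeq gene interval; bar height is the fold enrichment of IP over input, control above the line and Dox below, and block outlines widen each bar slightly. The control peaks nearest to the 5′ ends of Mettl14, Zc3h13 and Rbm15b have no Dox bar beneath them; the shorter of the overlapping peaks of Rbm15b is hidden behind the 1912 nt peak.

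The shared and unshared peaks were also counted by strength and by place. The fold enrichment and the false discovery rate (FDR) of a peak are the authors' own values, and a lower log10 FDR is a better supported peak. Where the log10 FDR was -5 or lower, 1 of 21 control peaks lacked a Dox peak (7.56% over all such peaks) and 0 of 18 Dox peaks lacked a control peak (11.6%). Above -5 it was 2 of 4 control peaks (40.4%) and 4 of 7 Dox peaks (52.1%). Over all peaks the share was likewise higher above -5, so this is no result about the writer genes. The 5′ end peak of Rbm15b was the 1 unshared peak at -5 or lower. By position, all 3 control peaks centred within 500 nt of a gene's 5′ end were unshared (38.4% of such control peaks in the whole list), and 0 of the 22 others were (15.3%). The exact intervals, 29.2% to 100% and 0% to 15.4%, include these whole-list shares, so this split is no result about the writer genes either. The peaks of Mettl14 and Zc3h13 among the 3 also had log10 FDRs above -5 (-3.04 and -1.39). Place and weak support therefore coincide in them. In the set, 3 of 25 control peaks (13.0% of all placed control peaks) and 0 of 25 Dox peaks (7.75%) were centred there. These counts depend on where a gene is taken to start. With every start listed by RefSeq, a choice made after seeing the data, 4 control and 2 Dox peaks lay within 500 nt of a start, and the fourth control peak, in Mettl3, was shared. At the other end, 2 of 25 control peaks (13.5%) and 0 of 25 Dox peaks (15.0%) were centred within 1000 nt of the 3′ end. Each of those 2 control peaks, in Wtap and Zc3h13, was part of a Dox peak that joined several exons and was centred further in.

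**Figure D2:**
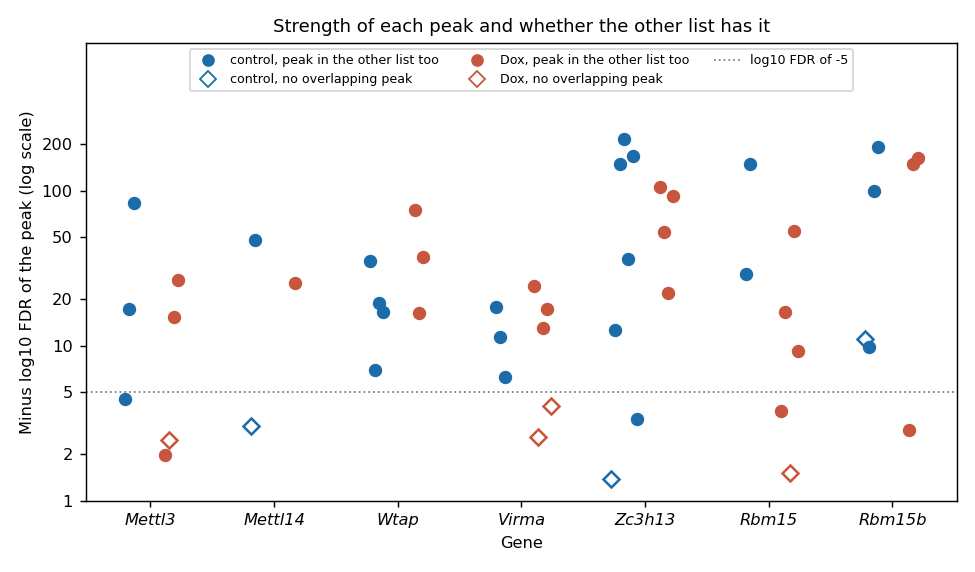
Minus log10 FDR of each peak on a log scale, by gene and condition; filled circles have an overlapping peak in the other condition, open diamonds have none, and the dotted line marks a log10 FDR of -5. Of the 7 open diamonds, 6 lie below the line, and the control peak of Rbm15b at 11 lies above it.

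Mettl3, the catalytic subunit, kept its 3 control peaks, and all 3 had lower folds in the Dox list. The gene (ENSMUSG00000022160.17) lies on the minus strand of chromosome 14, from 52294841 to 52308741. Its strongest peak was toward the 3′ end, from 52296101 to 52296729, with 300 exonic nt in 2 blocks, a control fold of 12.2 at a log10 FDR of -83.6. Its Dox counterpart ran from 52296071 to 52296935 with a fold of 5.10 at a log10 FDR of -26.6. A second peak, from 52298799 to 52300014 in control, had folds of 3.71 in control and 3.27 in Dox and was nearly as strong in both lists (log10 FDRs -17.3 and -15.3). The third lay at the transcript start, from 52304918 to 52305098, with a control fold of 4.75 (log10 FDR -4.55). Its Dox counterpart, 52304918 to 52305068, began 30 nt later along the transcript and had a fold of 2.26 (log10 FDR -1.98). In Dox a further weak peak from 52300272 to 52301317 (fold 1.66, log10 FDR -2.46) had no control counterpart.

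The start peak of Mettl3 is not among those counted at 5′ ends, because the RefSeq interval reaches 3617 nt upstream of the start listed in the promoter table. Measured from that start (52305124), the control peak covered transcribed bases 27 to 207. The last 24 bases of the Mettl3 sequence printed above fall inside it, and they contain 0 adenosines. The rest of this 181 nt peak lies outside the available sequence and was not searched. Its Dox counterpart begins at base 57, beyond the printed sequence.

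At its 3′ end Mettl3 faces Tox4 on the plus strand, and the strongest Mettl3 peak overlapped a Tox4 peak in both lists. The Tox4 peak began at 52296122 in control (fold 11.7) and at 52296092 in Dox (fold 3.96), beyond the RefSeq end of Tox4 at 52295509. It shared 65 exonic positions with the Mettl3 peak in control and 95 in Dox. Both genes' peaks had the lower fold in Dox. The libraries were stranded per the labels, but no source used here says whether peak calling used the strand. Reads of the 2 genes may therefore not be told apart at this site, and the folds of this Mettl3 peak are uncertain. Such opposite-strand overlap involved 7.21% of all control and 6.39% of all Dox peaks, and no other peak of the writer genes.

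Mettl14 encodes the RNA-holding partner of METTL3 and had the fewest peaks of the 7 genes. It lies on the minus strand of chromosome 3 from 123368295 to 123385990 (ENSMUSG00000028114.16). The control list held a peak near the 3′ end, 123369374 to 123369613, with a fold of 7.89 at a log10 FDR of -48.2. The only Dox peak, 123369284 to 123369583, overlapped it over 210 nt and had a fold of 5.36 (log10 FDR -25.5). The other control peak, 123385809 to 123385988, was centred 92 nt from the 5′ end and had no Dox counterpart. It was weak, with a fold of 3.90 at a log10 FDR of -3.04. Only 19.5% of all control peaks had a poorer FDR.

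Wtap, whose product brings METTL3 and METTL14 to nuclear speckles, kept all 4 control peaks in Dox. Its 2 control peaks with a Dox counterpart of their own had higher folds in Dox, as for 33.9% of such pairs over all genes. The other 2 lay within 1 joined Dox peak of higher fold, which is not matched to them place by place. The gene (ENSMUSG00000060475.12) lies on the minus strand of chromosome 17, from 12966799 to 12992543. From 5′ to 3′, the control folds were 3.43, 2.40, 4.09 and 2.31. The Dox list had 3 peaks with folds of 7.31, 3.61 and 6.78. The first control peak spanned 12975130 to 12980926 with 450 exonic nt and a log10 FDR of -35.3, and its Dox counterpart reached 599 nt and -74.9. The second lay from 12974652 to 12974861 in control and to 12974921 in Dox, with log10 FDRs of -7.01 and -16.3. The last Dox peak, 12967484 to 12972769, joined 3 exonic blocks of 808 nt in all. It covered the whole of both remaining control peaks, which had 240 and 480 exonic nt and log10 FDRs of -18.8 and -16.4, and its own was -37.1. No peak was called near the 5′ end of Wtap in either list.

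Virma encodes the large scaffold of the regulatory part and had peaks of modest fold in the middle of the gene. It occupies the plus strand of chromosome 4 between 11485958 and 11551143 (ENSMUSG00000040720.15). The 3 control peaks began at 11507075, 11513742 and 11519159, with folds of 3.25, 4.23 and 2.41 and log10 FDRs of -17.8, -11.3 and -6.33. Each lay wholly within a Dox peak. The Dox folds at these places were 4.30, 3.94 and 4.31, and the log10 FDRs were -24.2, -13.0 and -17.2. The fold was higher in Dox for 2 of these 3 shared peaks. The Dox peaks without a control counterpart were 11513322 to 11513442 (fold 2.32, log10 FDR -2.58) and 11526667 to 11526817 (fold 2.74, log10 FDR -4.11). Neither is in the authors' shorter list.

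Zc3h13, which anchors the regulatory part in the nucleus, had the most control peaks and the greatest covered length of the set in both lists. The gene (ENSMUSG00000022000.10) spans chromosome 14 from 75284306 to 75344433, on the plus strand. It had 7 control peaks, a number reached by 2.35% of genes with a control peak, and 4 wider Dox peaks. Its strongest control peak, 75324510 to 75329724, had 747 exonic nt in 3 blocks, the widest of 601 nt, with a fold of 32.4 at a log10 FDR of -216. A lower fold was listed for 98.9% of control peaks. Peaks of folds 12 (75321787 to 75323793) and 15.1 (75331715 to 75332193) lay on either side of it, with log10 FDRs of -148 and -167. All 3 lie between 65.1% and 79.2% of the way along the gene.

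In the Dox list of Zc3h13 the same stretch was covered by fewer, longer peaks. The first, 75315911 to 75323584 (fold 9.97, log10 FDR -105), overlapped the control peaks of folds 3.54 and 12. The second, 75323793 to 75330075 (fold 11.8, log10 FDR -54.5), contained the strongest control peak entirely and touched the one before it by 1 nt. The third, 75330135 to 75330881, had a fold of 4.08, against 5.99 for the 300 nt control peak inside it. The last joined 6 exonic blocks from 75330970 to 75343918 (1643 nt, fold 8.18, log10 FDR -92.7). It took in both the control peak of fold 15.1 and a weak one near the 3′ end (75343650 to 75343829, fold 2.08, log10 FDR -3.37). A joined peak and its parts cover different lengths, so these folds are not matched place by place. The control peak without a counterpart was a 61 nt peak, 75284522 to 75284582, centred 246 nt from the 5′ end. With a fold of 2.36 at a log10 FDR of -1.39 it was among the weakest of the control list (0.194% of peaks had a poorer FDR).

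Cbll1, the gene of the E3 ubiquitin ligase HAKAI, had no peak in either list. No peak midpoint of any identifier or strand fell in its interval, chromosome 12 from 31484829 to 31500676. The same held for 49.4% of protein-coding RefSeq genes, so this is a common state. The GAC triplets at its start show that the letters of the core are present there, not that they are methylated. Transcript levels were not analysed here, so a lack of m6A and a lack of reads cannot be told apart.

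Rbm15, an adaptor that recruits the writers to RNA such as Xist, had its peaks within long unspliced blocks close to the 5′ end of its interval. It lies on the minus strand of chromosome 3, from 107305511 to 107334460 (ENSMUSG00000048109.10). The control list had 2 wide peaks, both in single blocks. One, 107331847 to 107332865, had 1019 nt, a fold of 6.15 at a log10 FDR of -28.8. The other, 107330501 to 107331458, had 958 nt, a fold of 14.6 at a log10 FDR of -149. In the Dox list the same region held 5 narrower peaks. The first control peak overlapped Dox peaks of folds 2.56 and 4.88 (121 and 719 nt), and the second overlapped Dox peaks of folds 6.73 and 4.00 (779 and 360 nt). All 4 of these folds were below those of the control peaks they overlapped, but peaks of different length are not matched place by place. Between them lay a 61 nt Dox peak, 107331698 to 107331758, with a fold of 2.05, a log10 FDR of -1.50 and no control counterpart.

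Rbm15b, the paralog of Rbm15, held both the highest fold of the set and its widest peak. The gene (ENSMUSG00000074102.4) lies on the minus strand of chromosome 9 from 106880928 to 106887075. A single-block peak of 1912 nt was called in both lists, shifted by 30 nt: 106884263 to 106886174 in control and 106884233 to 106886144 in Dox. Its fold was 9.14 in control and 13.0 in Dox, with log10 FDRs of -190 and -163. A spliced peak within it (652 nt in control, 682 nt in Dox) was listed separately, with folds of 7.78 and 6.93, so the 2 overlapping entries of each list share reads. Closer to the 5′ end, a control peak of fold 5.74 (106886293 to 106886622, log10 FDR -9.74) had a Dox counterpart of fold 2.07 and log10 FDR -2.85.

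The 5′ end peak of Rbm15b stood out from the other unshared peaks. It ran from 106886801 to 106887010 in the control list, covering bases 66 to 275 from the annotated start, beyond the sequence printed above. Its fold of 46.7 exceeded that of 99.7% of control peaks, but its log10 FDR of -11 was near the middle of the list, better than that of 54.6% of peaks. Fold and FDR thus rank this peak very differently. No Dox peak overlapped it. No Dox fold is therefore listed at this place. At the next peak inward the fold was lower in Dox, while the 1912 nt peak had a higher fold in Dox.

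Folds of overlapping peaks were set side by side. The 27 overlapping pairs of control and Dox peaks included 11 in which each peak overlapped only the other. Of these 11, 4 (36.4%) had the higher fold in Dox, near the 33.9% of such pairs over all genes. They were 2 in Wtap and 2 in Virma. The other 7 had the lower fold in Dox: 3 in Mettl3 and 1 each in Mettl14, Virma, Zc3h13 and Rbm15b. The ratio of the Dox to the control fold in these pairs was 2.13 and 1.5 in Wtap and 1.32, 0.931 and 1.79 in Virma. It was 0.476, 0.881 and 0.418 in Mettl3, 0.679 in Mettl14, 0.681 in Zc3h13 and 0.361 in Rbm15b. In each of the 11 pairs the 2 peaks differed in exonic width, so these folds are not matched place by place either. The Zc3h13 pair had 300 nt in control and 747 nt in Dox, and the Rbm15b pair 330 and 180 nt. Over all 16357 such pairs the median ratio was 0.814 (quartiles 0.551 and 1.14), and 3.31% had a ratio of at least 2, as the first Wtap peak did. A ratio below 1 was thus the usual case over all genes, and its cause was not tested. The 2 lists were called separately, so no change in methylation can be read from a ratio above or below 1.

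**Figure D3:**
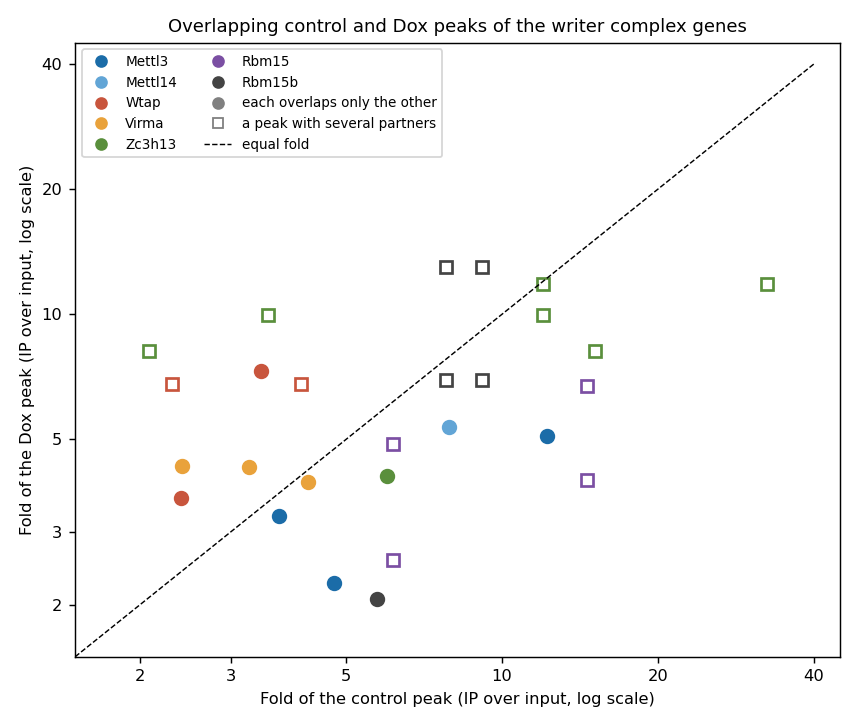
Fold of the Dox peak against fold of the control peak (both log scales) for the 27 overlapping pairs, coloured by gene; circles are pairs in which each peak overlaps only the other, open squares involve a peak with several partners, and the dashed line marks equal folds. All Wtap points lie above the line, with ratios from 1.5 to 2.94, and all Mettl3, Mettl14 and Rbm15 points lie below it. Circles and squares alike set peaks with different bounds against each other, so their folds are not matched place by place. The squares include the Wtap ratios of 1.66 and 2.94.

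The median exonic width of the writer genes' peaks was 300 nt in control and 390 nt in Dox, against 211 nt and 240 nt over all peaks. The median folds of the set were 4.75 and 4.30, against 4.62 and 3.51. A fold of at least 4 was reached by 15 of 25 peaks in each list (57.8% of all control and 41.3% of all Dox peaks). Peaks of more than 1 exonic block numbered 9 of 25 in control (41.2%) and 10 of 25 in Dox (42.7%). Peaks of at least 2 partners were also common: 5 of 25 control peaks overlapped at least 2 Dox peaks (4.93% over all), and 6 of 25 Dox peaks overlapped at least 2 control peaks (8.18%). In each direction 2 of these are the overlapping entries of Rbm15b. Peak number is thus a poor count of marked places in these genes. Along the gene, the median peak midpoint of the set lay at 52.8% of the interval in control and 51.0% in Dox, against 70.6% and 75.7% over all placed peaks. The peaks of Rbm15 lay between 5.72% and 14.0% of the way along it.

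Counted in nucleotides, most of the control-marked sequence stayed under a peak. Control peaks of the set covered 10429 exonic nt, of which 9173 (88.0%) were also under Dox peaks, and over all genes with peaks in both lists the share was 82.7%. The Dox peaks covered 12790 nt, of which 71.7% were under control peaks (68.5% over all). In Wtap and Virma every control-marked nucleotide (1380 and 723 nt) was covered in Dox as well. Mettl3 followed at 96.3%, Zc3h13 at 89.9%, Rbm15b at 84.1% and Rbm15 at 81.9%. Mettl14, with its start peak missing in Dox, had the lowest share at 50% (210 of 420 nt). The largest gain in covered length was that of Zc3h13, from 2665 to 4213 nt. Covered length was greater in Dox in 5 of the 7 genes, and in 65.8% of all genes with peaks in both lists.

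**Figure D4:**
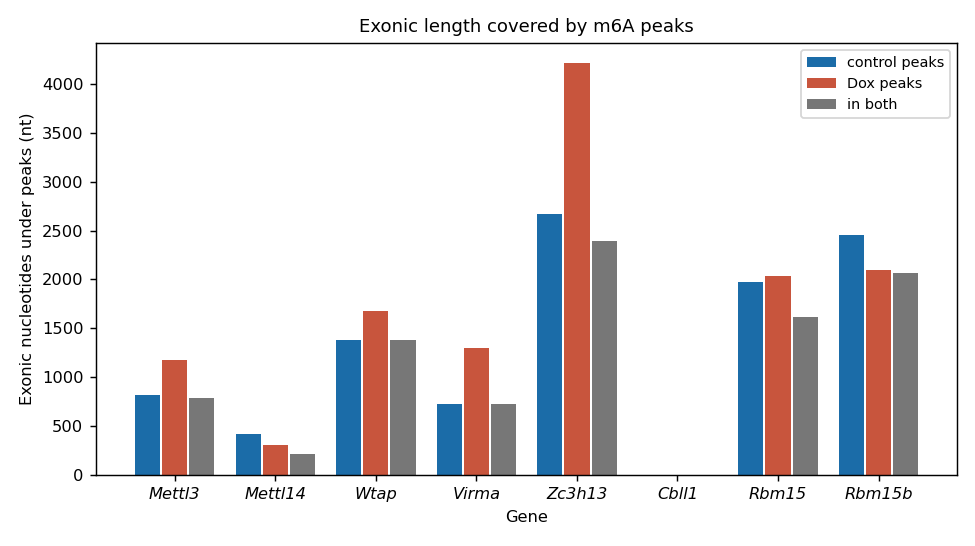
Exonic nucleotides under control peaks, under Dox peaks and under both, for each of the 8 genes. Grey bars reach the control bars in Wtap (1380 nt) and Virma (723 nt), Zc3h13 has the tallest Dox bar (4213 nt), and Cbll1 has no peak.

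Peak bounds in these tables move on a grid, which limits how finely the shifts above can be read. Over 8047 pairs of single-block peaks in which each overlapped only the other, 96.9% of the start and end shifts were multiples of 30 nt within 1 nt (10% if spread evenly). The shifts of 30 nt at Mettl3, Mettl14, Virma and Rbm15b are therefore a single step. The median shift of a bound was 30 nt.

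The best supported peak of a gene was at the same place in both lists for 6 of the 7 genes, and for 76.6% of all genes with peaks in both. The exception was Zc3h13, where the peak of fold 32.4 led the control list and the peak of fold 9.97, further 5′, led the Dox list. The highest Dox fold exceeded the highest control fold in Wtap (7.31 and 4.09) and Virma (4.31 and 4.23), and in 26.3% of all such genes.

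Other genes of the m6A pathway were counted in the same way. Of 21 such genes, 18 had peaks in both lists, 1 in Dox only and 2 had no identifier assigned. Counterparts were missing for 7 of their 55 control peaks (12.7%) and for 16 of their 56 Dox peaks (28.6%), against 19.3% and 29.1% over all peaks. By role, 1 of 13 control peaks was unshared among the other methyltransferases and their cofactor Trmt112, which act without the METTL3 complex. It was 2 of 7 in the erasers Fto and Alkbh5, 1 of 13 in the YTH readers, 0 of 8 in the IGF2BP readers and 3 of 14 in the other RNA-binding proteins. Among Dox peaks the unshared were 3 of 12 in the other methyltransferases, 2 of 5 in the erasers, 2 of 11 in the YTH readers, 2 of 10 in the IGF2BP readers and 7 of 18 in the other RNA-binding proteins. No difference between these groups and the writer genes was tested.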

How the data were processed

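m6A sequencing data of mouse embryonic stem cells were analysed as deposited by the authors: 1 peak table and 1 shorter list per condition, each tied by the labels to 4 libraries (2 IP, 2 input). The tools listed are TopHat2 2.1.1 and FastQC 0.11.5 and the genome is mm10, per the submitters' processing notes. The deposited tables carry exomePeak in their names; no source used here gives its version, settings or annotation. Each peak's fold enrichment is the authors' IP to input ratio, per the file headers. The log10 p and log10 FDR are columns of the deposited tables, and the p-value of each peak stands in the deposited tables and lists. In the shorter lists the largest p-value is 1e-05 and the lowest fold is 2.

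Overlaps were computed over exonic blocks with bedtools 2.31.1, the rest with Python 3.11.15, numpy 2.4.6, pandas 2.3.3, scipy 1.17.1 and matplotlib 3.10.9. On simulated lists of 300 peaks the overlaps had 0 errors. Identifiers were named by the protein-coding RefSeq gene (GRCm38.p6) that held most of their peak midpoints, at least 50%, which named 10594 of 13110. Position along a gene is that of the peak's exonic midpoint, for genes from 3000 nt upward. Exons, coding and untranslated parts were not assigned. RefSeq intervals carry no strand here, so strand was taken from the peak tables and the promoter table. All peaks of all 8 genes are described. The members and lists were chosen with earlier results of these data known. Coordinates are 1-based mm10 positions. Nothing in the labels says whether replicates came from separate cultures.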

Additional observations from a re-analysis of the deposited data

How the results depend on the processing

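The count of unshared control peaks was 2 to 4 under the filters and overlap rules that apply to both lists, against 3 in the full tables, but which peaks they are depends on the thresholds. In the authors' shorter lists the 3 of 22 (24.0% over all control peaks) were those of Mettl3 (start peak) and Rbm15b (2 peaks). With log10 FDRs of at most -5 the 2 of 21 (21% over all) were both in Rbm15b. At a fold of at least 4 the 4 of 15 (45.7% over all) were in Virma, Mettl3 and Rbm15b (2). Only the 5′ end peak of Rbm15b was unshared under all of them. With the control list alone held to log10 FDRs of at most -5, a choice added after seeing the data, 1 of 21 remained (7.56% over all). Unshared Dox peaks fell from 4 to 0 of 18 in the shorter lists and with log10 FDRs of at most -5 on both sides (22.3% over all in each), and with that limit on the Dox list alone (11.6% over all; added after seeing the data). They were 3 of 15 at a fold of at least 4 (31.6% over all) and 5 when overlap had to reach 50% of the shorter peak (30.5% over all). A fold of at least 4 left 15 control and 15 Dox peaks of the 25 each. Dox peaks at 5′ ends rose from 0 to 1 with a window of 1000 nt and to 2 when every listed RefSeq start was used (added after seeing the data), while control peaks there rose from 3 to 4 in both cases. Leaving out a replicate could not be done, since values per library were not analysed here. No paired analysis was possible because each table was called on both replicates together. Read depth limits which weak peaks can be called, and it is unknown.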
